A study of Mus musculus with 3 samples.

Results

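The genes described here are the insulin-like growth factor (IGF) ligands, their receptors and their binding proteins. They were chosen by symbol: 10 names were looked up among the 18287 genes of the deposited tables against control, and 9 were found (Igf1, Igf2, Igf1r, Igf2r and Igfbp3 to Igfbp7). Igfbp2 was not analysed here. The names were proposed with results of these libraries in view, so the values below describe the members and are not tests of them.

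RNA came from mouse aortic endothelial cells (MAECs), purchased primary cells of the aortic lining kept in the supplier's medium. There were 3 groups with 1 library each. The first is labelled control, with no agent in its treatment label. The second received glucose oxidase (5 mU/mL, 30 min), which oxidizes glucose and releases hydrogen peroxide into the medium. The third received glucose oxidase (5 mU/mL, 30 min) and ethyl-2-hydroxybenzylamine (Et2HOBA, 0.2 mM, 24 h), which the study used to scavenge adducts formed under high reactive oxygen species. The labels state neither the order of these exposures nor the number of cultures behind a library, and no library with Et2HOBA alone was analysed here. Since each group is 1 library, differences could not be set against a spread between replicates, and conditions were not tested.

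IGF1 and IGF2 are small secreted hormones related to insulin. They signal for growth and survival through the IGF1 receptor, a tyrosine kinase that feeds the PI3K-AKT and MAP kinase pathways, whereas IGF2R binds IGF2 and carries it to lysosomes without such signalling. The IGF binding proteins hold the ligands outside the cell, and proteases that cut them set the ligands free. Endothelial cells make several binding proteins and carry receptors for both IGF1 and insulin.

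Over the listed genes the depth was 35969965 reads for control, 35005089 for the library with glucose oxidase alone and 40212212 for the one with both agents. Reads are given in that order below. All 10 endothelial markers examined were read in each library, with Pecam1 at 37351, 26919 and 29562 reads and Cdh5 at 55360, 45034 and 63665. Pecam1 was lower in both treated libraries. Vwf (46607, 21567 and 12545 reads), Tek (6786, 2877 and 1688) and Kdr (61640, 27584 and 24227) were lower in both as well. The same held for Cldn5 (50579, 25153 and 15378) and Tie1 (78258, 46273 and 42662). It also held for Egfl7 (18404, 14716 and 15640) and Esam (17876, 15726 and 16604). Emcn went the other way, with 5373, 6333 and 7936. The summed normalized count of these markers was 366513, 240512 and 221360 in the same order. Of 6 fibroblast markers, Col1a1 and Pdgfra were listed, and their sum was 131, 1404 and 2738, nearly all of it Pdgfra, while Col1a1 had 28, 30 and 23 reads. Smooth muscle markers (4 of 6 listed) summed to 42.6, 73.5 and 95.3, and pericyte markers (3 of 5) to 41.7, 123 and 137. Leukocyte and macrophage markers (4 of 6) summed to 8200, 17911 and 27120, mostly Cd68. The others went both ways, with Cd14 at 55, 136 and 272 reads, Lyz2 at 186, 76 and 86, and Csf1r at 6, 12 and 10. Epithelial and mesothelial markers (2 of 5) summed to 1003, 2622 and 3823, mostly Msln, while Krt19 had 55, 38 and 67 reads. Lymphatic markers (2 of 4) summed to 18313, 29523 and 39497, of which Lyve1 had 11828, 22417 and 33226 reads and Flt4 7071, 6084 and 7796. No listed marker was at 0 in any library. These sums moved with treatment, and their part in the results below was not tested. In bulk RNA, fewer cells of a type and less RNA per cell cannot be told apart.

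Normalized counts are reads divided by a size factor per library. Log2 ratios are of normalized counts plus 10, which understates changes of low genes, and a ratio of 1 or more in either direction is called past the limit. Folds are of normalized counts without the 10. Their 95% intervals are exact (Clopper-Pearson) and cover counting error only. The glucose oxidase counts were recovered from the deposited log2 differences.

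Igfbp3, Igfbp4 and Igfbp5 had the highest levels per kilobase of exon among the members in every library. The bases upstream of their RefSeq starts (build GRCm38.p6), outside annotated exons, are shown because each holds a TATA-type sequence on its own strand, in capitals. The windows are chr11:7213924-7214173 for Igfbp3 (minus strand), chr11:99040994-99041243 for Igfbp4 (plus strand) and chr1:72874885-72875115 for Igfbp5 (minus strand).
Igfbp3: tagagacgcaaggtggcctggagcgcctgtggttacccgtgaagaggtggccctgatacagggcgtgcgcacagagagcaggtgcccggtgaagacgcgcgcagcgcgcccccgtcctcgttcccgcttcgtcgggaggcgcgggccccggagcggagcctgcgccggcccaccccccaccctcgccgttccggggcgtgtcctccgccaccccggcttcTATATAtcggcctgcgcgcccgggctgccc
Igfbp4: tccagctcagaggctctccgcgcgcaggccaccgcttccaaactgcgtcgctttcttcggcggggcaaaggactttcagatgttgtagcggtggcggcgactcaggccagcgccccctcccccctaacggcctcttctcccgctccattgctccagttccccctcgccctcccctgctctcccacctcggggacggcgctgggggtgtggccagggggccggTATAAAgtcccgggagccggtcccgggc
Igfbp5: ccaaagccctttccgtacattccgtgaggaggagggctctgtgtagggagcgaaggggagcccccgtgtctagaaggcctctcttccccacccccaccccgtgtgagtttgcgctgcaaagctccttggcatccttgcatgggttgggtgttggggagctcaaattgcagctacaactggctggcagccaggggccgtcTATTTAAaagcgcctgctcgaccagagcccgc

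The match began 30 bases before the RefSeq start in Igfbp3 (TATATA), 28 in Igfbp4 (TATAAA) and 51 in Igfbp5 (TATTTAA). The RefSeq start of Igfbp5 lies inside an annotated exon of the gene. Its printed stretch therefore ends short of that start, and the match is nearer to the end of the stretch. Searched on both strands over 250 upstream bases, TATATA occurred in 5.25%, TATAAA in 12.4% and TATTTAA in 4.18% of 32851 RefSeq windows. These matches are descriptions of the letters, and Igfbp3 was lower after treatment where Igfbp5 was higher. Of the other members, a TATAAA match was found upstream of Igfbp6 alone, on the opposite strand, 148 to 143 bases before the start. GC boxes (GGGCGG, in 32.7% of windows) stood upstream of Igf1r, Igf2r, Igf2, Igfbp2 and Igfbp7, and CCAAT (33.9% of windows) upstream of Igf1, Igf2 and Igfbp6. No window of the 10 members held TTCNNNGAA (STAT factors), GTAAACA (FOXO factors), TGATGNAA (C/EBP-ATF composite) or TGACNNNGC (antioxidant response element core). These occurred in 7.02%, 3.17%, 3.45% and 10.2% of all windows. The only Igf1 window (chr10:87860861-87861110) lies wholly inside annotated exon sequence of Igf1, past the annotated start of the gene. Its match and its missing motifs therefore do not describe bases upstream of the whole gene. Windows of Igf2, Igfbp2 and Igfbp5 also overlap annotated exons in part or in whole.

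Both ligands were lower in the treated libraries. Igf1 (ENSMUSG00000020053.18, chromosome 10, 87858265 to 87937042, GRCm38) had 1547 reads in control, 126 with glucose oxidase alone and 41 with both agents. The counting intervals of the 3 libraries did not overlap. The normalized count was 11.5-fold lower than control after glucose oxidase (fold 0.0871, 95% interval 0.0720 to 0.104) and 38.0-fold lower with Et2HOBA (fold 0.0263, 0.0188 to 0.0359). With Et2HOBA it was 3.31-fold lower than with glucose oxidase alone (fold 0.302, 0.207 to 0.433). In log2 ratios these differences were -3.42, -4.93 and -1.51. After glucose oxidase, 33 of the 18287 genes had a lower log2 ratio than Igf1, and with Et2HOBA none did. These ranks hold with the 10 added, which limits how low genes with few reads can go. By fold, any gene with reads in control and 0 with both agents, such as Grb14 and H19, stood lower than Igf1. Of all listed genes, 218 had 0 reads with both agents, and how many genes stood lower by fold was not counted.

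Igf2 (ENSMUSG00000048583.16, chromosome 7, 142650766 to 142666816) had 89, 35 and 16 reads. The libraries stood in the same order as for Igf1. The fold was 0.420 (0.276 to 0.628) after glucose oxidase, 0.179 (0.0979 to 0.306) with Et2HOBA, and 0.425 (0.2196 to 0.788) between the treated libraries, with log2 ratios of -1.06, -1.92 and -0.86. The first did not pass the limit with a pseudocount of 50 (-0.66) or in the authors' deposited table (-0.44). The annotated gene Gm49394 holds 62.8% of the exon bases of Igf2 on the same strand, so the count depends on how shared reads were assigned. The antisense gene Igf2os, which shares 1.71% of them, had 84, 42 and 26 reads, and whether counting used strand is not given in the sources used here. H19, the imprinted neighbour of Igf2, had 7, 4 and 0 reads.

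**Figure D1:**
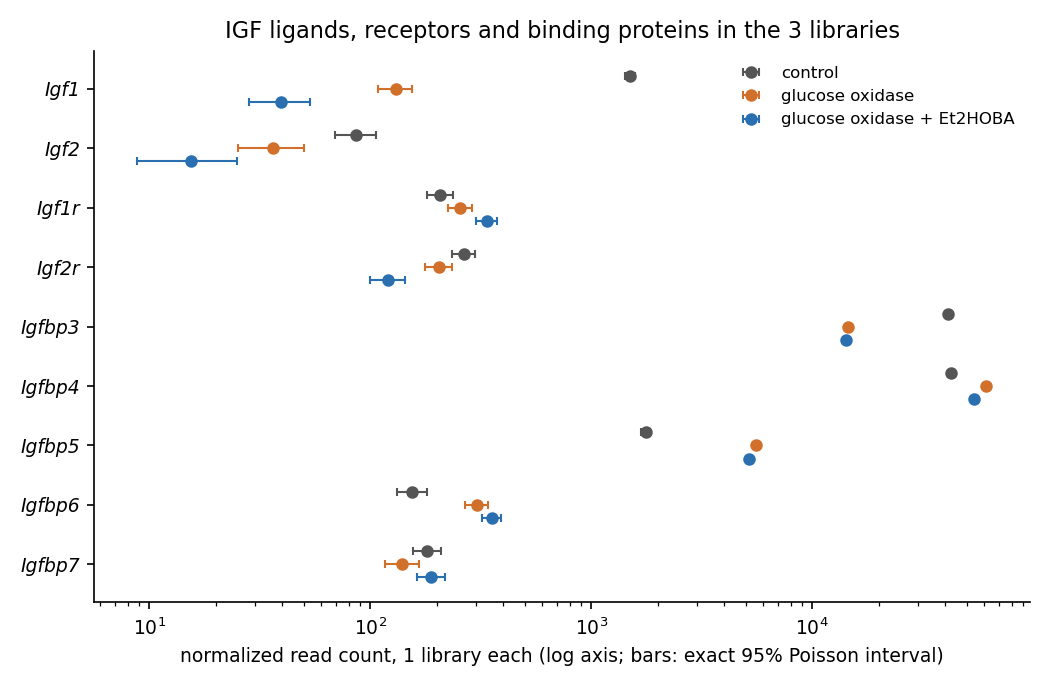
Normalized read count (log axis) of the 9 listed members in each of the 3 libraries, 1 point per library with its exact 95% Poisson interval. Igf1 runs from 1499 in control to 131 and 39.5, while Igfbp4 stays at 42526 or above in all 3.

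Both receptors lay below every binding protein per kilobase in each library. Igf1r (ENSMUSG00000005533.10, chromosome 7, 67952827 to 68233668), the signalling receptor, had 214, 246 and 349 reads. It was highest with Et2HOBA, at 1.62-fold control (1.36 to 1.93), and stood at 1.23-fold (1.02 to 1.48) after glucose oxidase. The fold between the treated libraries was 1.32 (1.12 to 1.56). None of these passed the limit, with log2 ratios of 0.28, 0.67 and 0.39.

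Igf2r (ENSMUSG00000023830.14, chromosome 17, 12682406 to 12769664), the receptor that clears IGF2, moved the other way, with 273, 198 and 125 reads. The fold was 0.775 (0.642 to 0.934) after glucose oxidase, 0.455 (0.365 to 0.564) with Et2HOBA and 0.587 (0.465 to 0.738) between the treated libraries. The log2 ratios were -0.35, -1.07 and -0.72, so that only the comparison of both agents with control passed the limit, and it did not with a pseudocount of 50 (-0.88) or in the authors' deposited table (-0.86). Per kilobase of exon, Igf2r was above Igf1r in control (28.4 against 12.4 normalized counts) and below it with Et2HOBA (12.9 against 20.01), and in both libraries their counting intervals were apart. The insulin receptor gene Insr, whose product can pair with IGF1R, was above both, at 124, 102 and 97.4 per kilobase.

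Igfbp3 (ENSMUSG00000020427.11, chromosome 11, 7206086 to 7213923), which encodes the main IGF carrier of the circulation, had 42545, 13997 and 14768 reads. Control was high and the treated libraries were close to each other. The fold against control was 0.352 (0.345 to 0.358) after glucose oxidase and 0.345 (0.338 to 0.351) with Et2HOBA, log2 ratios of -1.51 and -1.54. The fold between the treated libraries was 0.981 (0.958 to 1.004), an interval that holds 1.

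Igfbp4 (ENSMUSG00000017493.12, chromosome 11, 99041244 to 99054392), a binding protein that is cut by the protease PAPP-A, had 43886, 59339 and 55999 reads. It was 1.45-fold higher than control after glucose oxidase (1.43 to 1.46) and 1.27-fold higher with Et2HOBA (1.25 to 1.28), with log2 ratios of 0.53 and 0.34, both under the limit. With Et2HOBA it was 0.877 of the glucose oxidase level (0.867 to 0.887). Of its 50-base stretches, 2.00% occur in another annotated gene.

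Igfbp5 (ENSMUSG00000026185.8, chromosome 1, 72857932 to 72874884), which encodes a binding protein that attaches to extracellular matrix, had 1826, 5403 and 5374 reads. The treated libraries were high and near each other. The fold against control was 3.16 (2.999 to 3.34) and 2.92 (2.77 to 3.09), log2 ratios of 1.66 and 1.54, and between the treated libraries it was 0.924 (0.890 to 0.960). After glucose oxidase 247 genes had a higher ratio, and 527 with Et2HOBA. Igfbp5 and Igfbp3 thus lay past the limit in opposite directions in both comparisons against control.

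Igfbp6 (ENSMUSG00000023046.6, chromosome 15, 102144362 to 102149511), whose product prefers IGF2 over IGF1, had 160, 293 and 368 reads, 1.96-fold control (1.61 to 2.39) and 2.29-fold control (1.89 to 2.77). Its log2 ratios of 0.93 and 1.14 fell on either side of the limit. The second was 0.998 with total-count scaling, 0.98 with a pseudocount of 50 and 0.94 in the authors' deposited table. Between the treated libraries the interval of its 1.17-fold difference held 1 (0.999 to 1.37).

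Igfbp7 (ENSMUSG00000036256.13, chromosome 5, 77349240 to 77408041) encodes a related secreted protein with weaker IGF binding. It had 187, 135 and 196 reads, lowest after glucose oxidase and alike in the other libraries. The fold was 0.772 (0.614 to 0.968) after glucose oxidase, 1.04 (0.848 to 1.28) with Et2HOBA and 1.35 (1.08 to 1.69) between the treated libraries. Its log2 ratio of 0.06 for both agents against control turned to -0.09 with total-count scaling. Polr2b, on the opposite strand, shares 7.03% of its exon bases and had 6370, 5133 and 5085 reads.

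**Figure D2:**
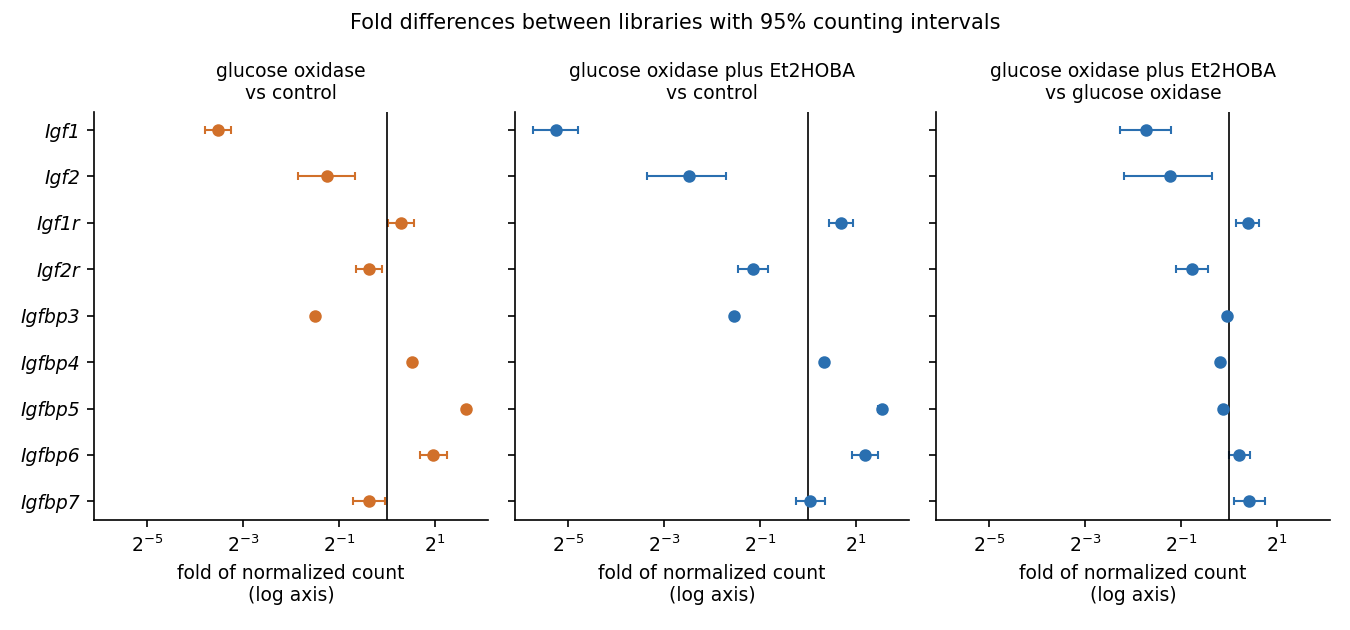
Fold of normalized count (log axis) of each member in the 3 comparisons, with 95% counting intervals and a line at equal levels. Igf1 and Igf2 lie left of the line in all panels; Igfbp3 (0.352 and 0.345) and Igfbp5 (3.16 and 2.92) lie on opposite sides against control and close to the line between the treated libraries.

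After glucose oxidase, 4 of the 9 members were past the limit, beside 12.7% of all listed genes: Igfbp5 was higher (4.07% of genes) and Igf1, Igf2 and Igfbp3 were lower (8.6%). The median log2 ratio of the 9 was -0.35, and that of all genes was -0.01. With both agents, 6 of the 9 were past the limit against control, beside 14.7%, with Igfbp5 and Igfbp6 higher (6.66% of genes) and Igf1, Igf2, Igf2r and Igfbp3 lower (8.04%). The member median was 0.06, that of all genes was -0.00015. Both comparisons use the same control library and were known when the names were proposed, so nothing particular to the members is read from these counts. On the scale of the authors' deposited tables, 3 and 4 members passed, beside 4.01% and 9.67% of all genes.

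Between the treated libraries 1 of 9 members, Igf1, passed the limit, beside 8.55% of all genes (6.39% higher and 2.15% lower). The authors' deposited table of that comparison lists 7 genes and no member. Its scale compresses low counts, and acts as if 1236 were added only for normalized counts well above that number. Recomputed on that scale, the ratio of Igf1 was -0.29 and did not pass, and 0.235% of all genes did. The member median was -0.11 against 0 for all genes. The counting interval excluded equal levels for 7 of the 9, a criterion that 54.7% of all genes met at this depth. It did so for 9 of 9 members after glucose oxidase (60.3% of genes) and for 8 of 9 in the other comparison against control (64% of genes). In the authors' deposited table for glucose oxidase against control Igf1 had a log2 difference of -2.50, and for glucose oxidase plus Et2HOBA against control it had -4.03.

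**Figure D3:**
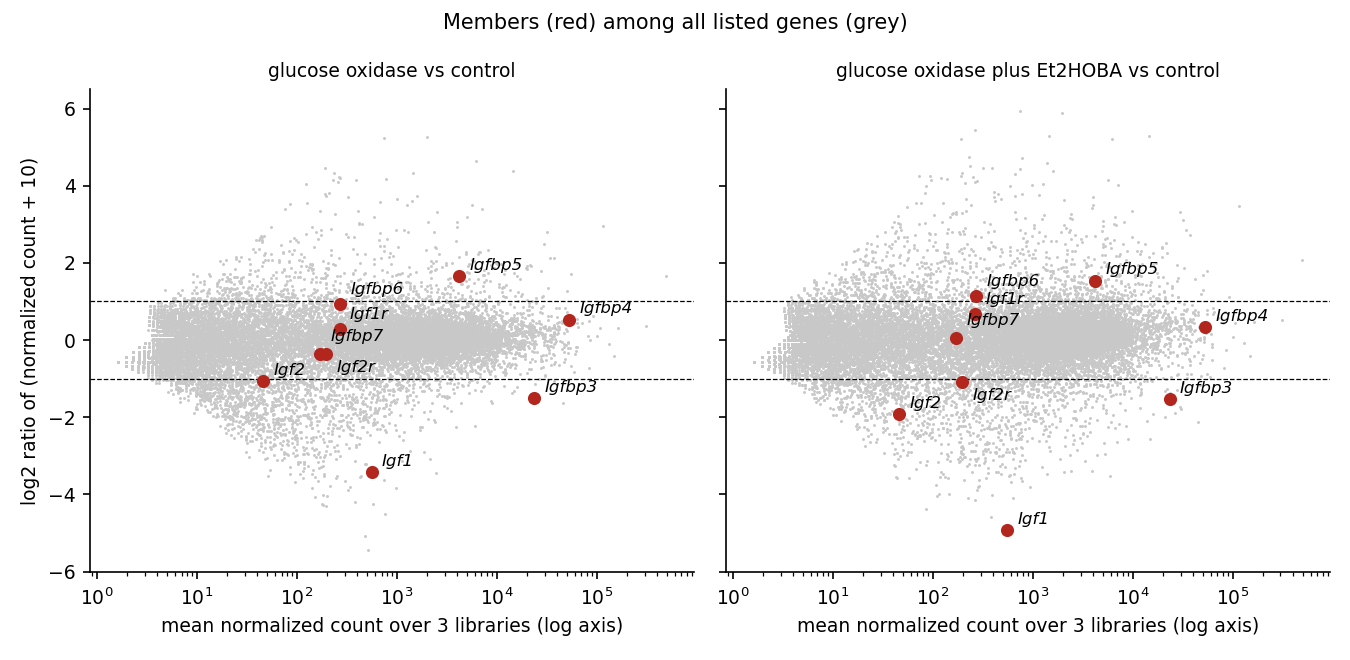
Log2 ratio of normalized count plus 10 against mean normalized count (log axis) for all 18287 listed genes (grey) and the 9 members (red), with dashed lines at the limit of 1. Igf1, at -3.42 and -4.93, lies near the lower edge of the cloud in both panels, and Igfbp3 and Igfbp4 lie among the genes with the most reads.

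Per kilobase of exon, which allows levels of different genes to be compared, Igfbp3 led in control with 13171 normalized counts, followed by Igfbp4 with 9630 and Igfbp5 with 295. Igf1, Igfbp7 and Igfbp6 followed at 151, 150 and 139, and neighbours among them did not differ beyond counting error. Igf2r (28.4), Igf2 (15.1) and Igf1r (12.4) were lowest, and the intervals of the last 2 overlapped. After glucose oxidase the order was Igfbp4 (13919), Igfbp3 (4632), Igfbp5 (932), Igfbp6 (273), Igfbp7 (116), Igf2r (22.0), Igf1r (15.2), Igf1 (13.2) and Igf2 (6.34), and only Igf1r and Igf1 overlapped as neighbours. With Et2HOBA the first 5 kept this order, at 12210, 4543, 862, 319 and 156, and were followed by Igf1r (20.01), Igf2r (12.9), Igf1 (3.99) and Igf2 (2.69), the last 2 overlapping. Among protein-coding genes, Igfbp4 ranked 124 in control, 80 with glucose oxidase alone and 103 with both agents by level per kilobase, and Igfbp3 ranked 71, 315 and 354.

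The makeup of the binding-protein transcripts shifted from Igfbp3 to Igfbp4. Igfbp3 made up 56.3% of the summed per-kilobase level of the 5 listed binding proteins in control, 23.3% with glucose oxidase alone and 25.1% with both agents. Igfbp4 made up 41.2%, 70.0% and 67.5%, and Igfbp5 1.26%, 4.69% and 4.76%. The sum itself was 23385, 19872 and 18089 per kilobase, while the 2 ligands together had 166, 19.5 and 6.68 and the 2 receptors 40.8, 37.2 and 32.9. The binding-protein level was thus 141 times the ligand level in control, 1018 times after glucose oxidase and 2709 times with Et2HOBA. These are ratios of transcript levels without Igfbp2, and no protein was measured.

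**Figure D4:**
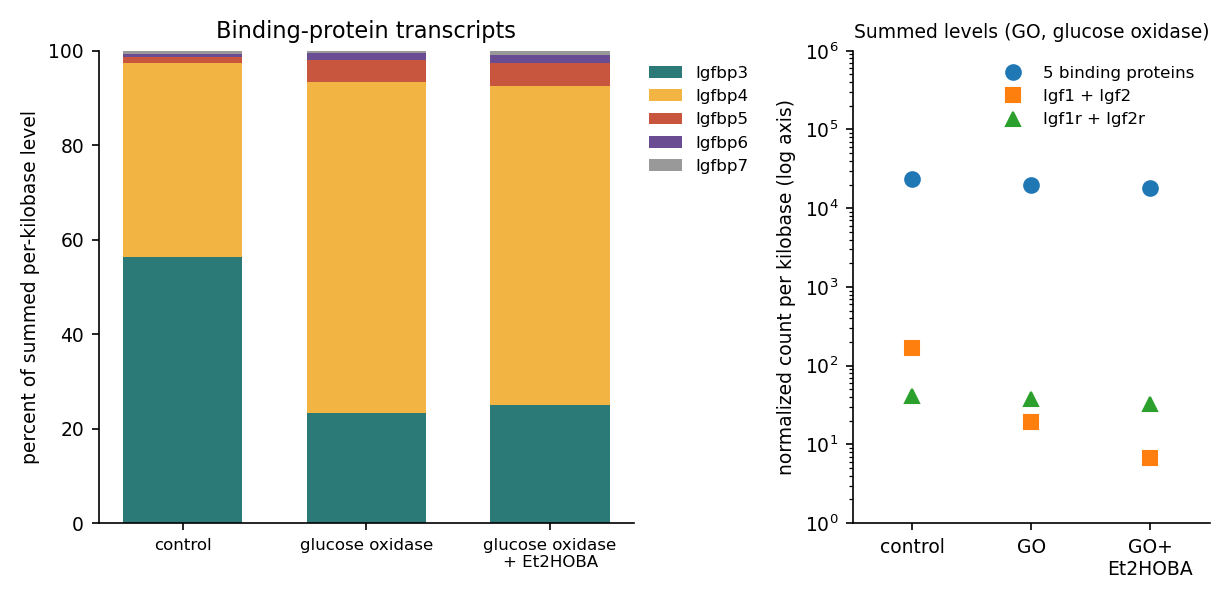
Left, share of each binding protein in the summed per-kilobase level of the 5 listed ones, stacked to 100% for each library. Right, summed normalized count per kilobase (log axis) of binding proteins, ligands and receptors; ligands run from 166 to 19.5 and 6.68, and receptors from 40.8 to 37.2 and 32.9.

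Other genes of the pathway were taken from a list of 60, of which 53 were analysed here. After glucose oxidase 5 were higher and 4 lower past the limit, 17.0% of the 53 beside 12.7% of all genes, with a median log2 ratio of 0.03. For both agents against control 9 were higher and 5 lower, 26.4% beside 14.7%, with a median of 0.04. Between the treated libraries 1 was higher and 1 lower, 3.77% beside 8.55%, with a median of 0.03. The medians of all genes in these comparisons were -0.01, -0.00015 and 0.

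Of 5 listed proteases that cut binding proteins and their inhibitors, 2 were higher and 1 lower past the limit after glucose oxidase. With both agents 3 were higher and 1 lower. The shares of all genes past it were 12.7% and 14.7%. Pappa2, which encodes the protease PAPP-A2 that cuts IGFBP3 and IGFBP5, had 18, 115 and 133 reads, folds of 6.83 (4.13 to 11.9) and 7.34 (4.47 to 12.8) against control. Stc1, which encodes stanniocalcin-1, an inhibitor of PAPP-A, had 619, 1047 and 2472 reads. It was the one pathway gene higher past the limit between the treated libraries, at 2.19-fold (2.04 to 2.36). Neither Pappa, which encodes PAPP-A itself, nor Adam28 of the same subgroup was among the listed genes, so their levels are not given here. Adam12, which encodes a metalloprotease that cuts IGFBP3 and IGFBP5, had 1387, 377 and 276 reads, or 0.291 (0.259 to 0.326) and 0.198 (0.173 to 0.225) of control. Htra1, which encodes a secreted serine protease, had 1, 12 and 16 reads (log2 ratios 1.03 and 1.21 against control). Stc2 had 59, 38 and 45 reads and did not pass the limit.

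Genes next to the ligands and binding proteins also varied. Lrp1, which encodes a large endocytic receptor that binds IGFBP3, had 3271, 8897 and 13804 reads, 2.91-fold (2.79 to 3.03) and 4.19-fold control (4.04 to 4.36). Igf2bp2, which encodes a protein that binds Igf2 mRNA, had 3866, 5570 and 9317 reads and passed the limit with both agents only (log2 ratio 1.26). In the growth hormone-STAT5 route, which controls Igf1 transcription in liver, Ghr had 639, 559 and 625 reads and Stat5b 1468, 1284 and 1541. Jak2 was higher than control, with 1778, 2573 and 3373 reads (log2 ratios 0.63 and 0.91). Stat5a was lower, with 676, 487 and 501 reads (-0.37 and -0.43). None of these passed the limit. Socs2, which encodes a feedback inhibitor of that route, had 357, 636 and 1180 reads, 3.28-fold control with both agents (2.92 to 3.71).

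Downstream of the receptor, 11 adaptor genes were listed, of which 1 was higher and 2 lower past the limit in both comparisons against control. Of all genes, 12.7% were past it after glucose oxidase and 14.7% with both agents. Irs1, a docking protein of the insulin and IGF1 receptors, had 254, 88 and 44 reads, or 0.370 (0.287 to 0.474) and 0.172 (0.122 to 0.238) of control. Irs2, its relative, had 5, 25 and 34 reads, so its folds of 5.35 (2.01 to 17.9) and 6.76 (2.63 to 22.1) are imprecise. Grb14, an adaptor that inhibits the insulin receptor, had 59, 6 and 0 reads, and the upper end of the 95% interval of its fold with both agents was 0.0641 of control. Grb10, its abundant imprinted relative, had 50532, 45619 and 40816 reads and did not pass.

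Of 21 listed PI3K-AKT-mTOR genes, 1 was higher and 1 lower past the limit after glucose oxidase, beside 12.7% of all genes past it. With both agents 2 were higher and 2 lower, beside 14.7% of all genes. Eif4ebp1, a translation repressor that mTOR inactivates, had 1744, 8340 and 14695 reads, 5.11-fold (4.85 to 5.39) and 8.37-fold control (7.97 to 8.80). Pik3r3, a regulatory subunit of PI3K, had 10326, 4735 and 2184 reads, and its log2 ratio of -1.22 made it the one pathway gene lower past the limit between the treated libraries. It shares 23.9% of its 50-base stretches with the annotated gene Gm49337. The share found in other genes was 7.23% for Socs2, 5.80% for Pik3cb, 3.59% for Adam12 and 3.17% for Eif4ebp1. Pik3cb, a catalytic subunit, had 398, 555 and 887 reads (log2 ratio 1.13 with both agents), and Pik3r1, another regulatory subunit, had 5097, 3397 and 2493 (-1.04). All 4 listed genes of FOXO transcription factors, which the pathway holds out of the nucleus, lay between -0.54 and 0.22.

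**Figure D5:**
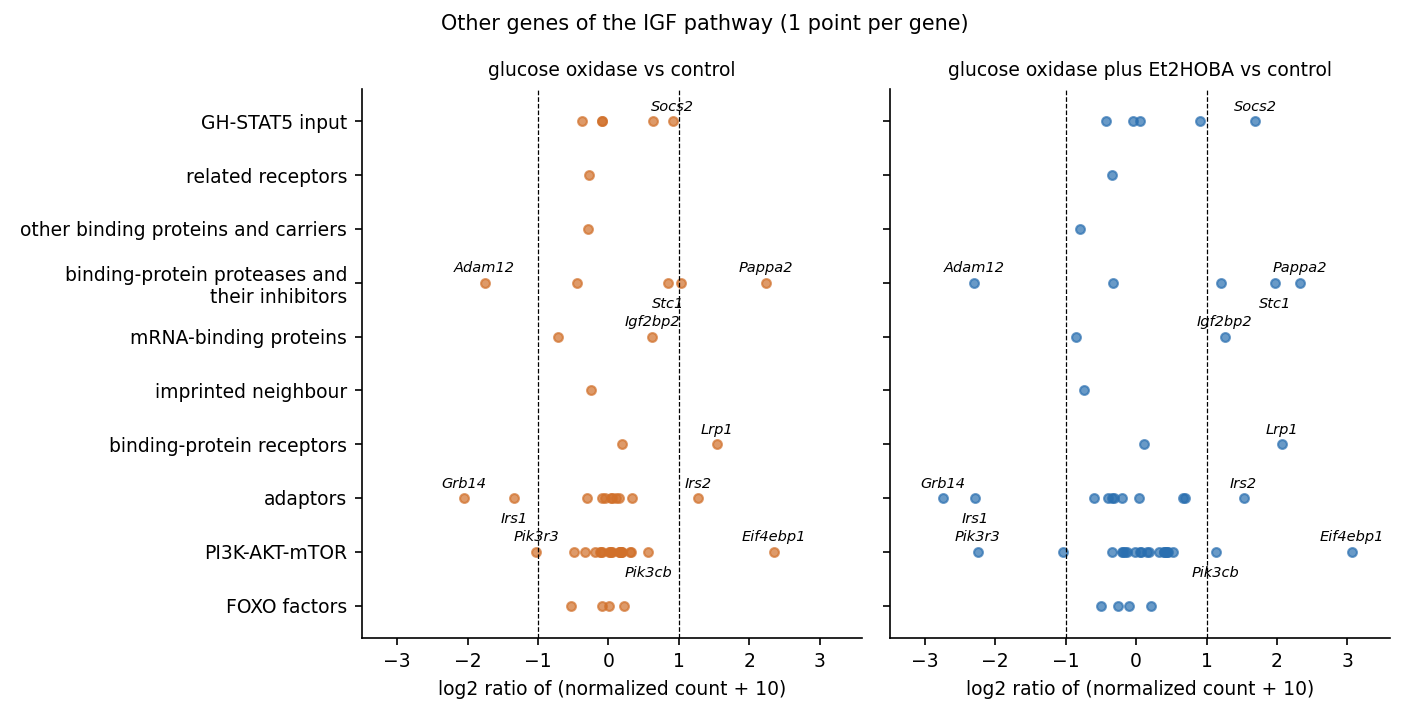
Log2 ratio of normalized count plus 10 for 53 other pathway genes by subgroup, 1 point per gene, after glucose oxidase (left) and with Et2HOBA as well (right), with dashed lines at the limit of 1 and the named genes labelled. Eif4ebp1 is farthest right (2.35 and 3.06) and Grb14 farthest left (-2.05 and -2.75).

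The genes most like Igf1 and Igfbp5 were sought among 10596 protein-coding genes with a mean normalized count of at least 100, by the Euclidean distance between pairs of log2 ratios against control, over 3 libraries. For Igf1 the nearest were Cox8b (a subunit isoform of cytochrome c oxidase; distance 0.846; 1104, 47 and 36 reads), Cbs (cystathionine beta-synthase; 0.949; 328, 17 and 11 reads) and Nox1 (a catalytic subunit of NADPH oxidase; 1.12; 1016, 131 and 53 reads). For Igfbp5 the nearest were Rftn2 (0.0738; 70, 218 and 233 reads), Ccno (0.124; 56, 175 and 197 reads) and 9530053A07Rik (0.136; 82, 255 and 237 reads).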

How the data were processed

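Stranded libraries of polyadenylated RNA were aligned to mm10, and STAR and featureCounts are named, without versions, in the submitters' processing notes. The authors deposited raw read counts for control and for both agents, per the file headers, and log2 differences against control for 18287 genes and between the treated libraries for 7. How the log2 values were made is not given in the sources used here. The values fit a variance-stabilizing arcsinh form, and solving it for the glucose oxidase library returned whole reads (tolerance 0.01) at 100% of 18275 symbol-matched genes, against 3.31% once 1 read was added to each control count. A further 12 genes were placed by whole reads. Low counts are compressed on each scale. For normalized counts well above a constant, the form acts as if that constant had been added. The constant was 202 for glucose oxidase against control, 71.1 for both agents against control and 1236 between the treated libraries. The deposited scales therefore differ.

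Size factors by median of ratios were 1.03, 0.965 and 1.04. Recovery and ratios were run on simulated Poisson counts transformed with the same arcsinh form. That run checks the code and cannot show whether the form or the intervals hold for these libraries. Exon lengths came from GENCODE M21 (18269 IDs matched without version), and promoters from RefSeq GRCm38.p6. Each gene in the tables has 5 or more reads in some library, and all 9 listed members passed a mean normalized count of 10. Reads carry no stated molecular identifiers, so repeated reads of 1 molecule could not be told apart. The intervals treat reads as independent and may be too narrow even for counting error. They do not cover spread between replicates. Named genes were every member, pathway genes past the limit (at most 3 per subgroup, by size), and the 3 nearest genes to the highest and the lowest member with both agents. Outside this rule, Htra1, Pik3r1, Stc2, H19, Insr, Ghr, Jak2, Stat5a, Stat5b, Grb10 and the FOXO genes were named after their values were seen. Members and lists were chosen with earlier results of these data known, and the promoter search and the makeup of binding proteins were added after the data were examined. Python 3.11.15, scipy 1.17.1 and edgeR 4.0.16 (TMM factors only) were used.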

Additional observations from a re-analysis of the deposited data

How the results depend on the processing

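No paired analysis was possible because each group has 1 library. Total-count and TMM scaling, pseudocounts of 1 and 50, a minimum mean normalized count of 10, the deposited scale and a limit of 0.5 were tried. Over the 27 member ratios (9 genes, 3 comparisons), the sign changed for 1, Igfbp7 with both agents against control under total-count scaling, which moves the median of all genes to -0.06, -0.13 and -0.08. The side of the limit changed for 1 ratio with total-count scaling, 1 with a pseudocount of 1 (Igf2 between the treated libraries, -1.18), 3 with a pseudocount of 50 and 4 on the deposited scale, and for none with TMM scaling or the filter. Between the treated libraries the count of members past the limit was 2 with a pseudocount of 1, 0 on the recomputed deposited scale and 3 at the limit of 0.5, against 1. The shares of all genes past it were 18.1%, 0.235% and 25.5%, against 8.55%. The count of pathway genes there was 5, 0 and 14 of 53 in the same order, against 2. Against control, pathway genes past the limit numbered 3 on the deposited scale (4.01% of all genes) and 16 at the limit of 0.5 (33.8% of all genes) after glucose oxidase, against 9, and 22 at the limit of 0.5 with both agents (40.1% of all genes), against 14. The deposited scale and the higher pseudocount compress low counts by construction, and a lower limit admits more genes. With the longest transcript as length, the binding-protein level was 124, 892 and 2402 times the ligand level, and Igfbp3 made up 59.3%, 25.6% and 27.6%.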
